A study of Mus musculus with 12 samples.

Results

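The CD300 and TREM receptors of myeloid cells were examined together with Tyrobp (DAP12), the adaptor through which many of them signal. The 9 genes Cd300a, Cd300lb, Cd300ld, Cd300lf, Cd300e, Trem1, Trem2, Trem3 and Tyrobp were found by their symbols among the 55335 genes listed, and 8 of them were among the 14357 genes with enough reads for a test. Cd300e was the exception, with between 0 and 9 counts per library. The genes were picked with the change from WT to WTL in view, in which Cd300lb shows the largest fall of the 9, so values of that comparison are given for them as a description with no test. RNA-seq was carried out on bone marrow-derived dendritic cells (BMDC) of adult male and female C57BL/6 mice that carried the Rosa26-CreER transgene and an intact Ctcf gene (Ctcf wt/wt), in all 4 groups. CreER is a Cre recombinase that acts only when tamoxifen is given, and the gene it serves to delete in other animals of the study was not floxed here. The paper describes 4-hydroxytamoxifen on the first day of marrow culture for the deletion of Ctcf. Whether the cultures of these 4 groups received it is not stated clearly in the sources used here. Marrow was cultured for 6 days with GM-CSF, the medium was renewed every 2 days, and according to the methods floating cells were taken and selected for CD11c.

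The 4 groups held 3 libraries each. WT cells were untreated, and WTL cells received LPS, the endotoxin of Gram-negative bacteria, which activates dendritic cells, at 100 ng/ml for 3 h. WT + JSH23 cells received JSH-23, a small molecule that keeps the NF-κB subunit RelA out of the nucleus, at 100 µM for 3 h, and WTL + JSH23 cells received JSH-23 at that dose before the same LPS treatment. The sources used here do not say whether the remaining 2 groups were given the vehicle. The libraries without JSH-23 are numbered 4 to 6 and those with it 1 to 3, and the labels do not say whether the sets were prepared together, so an effect of JSH-23 and a difference between these sets cannot be told apart. Nothing beyond the statement of biological replicates in the methods says that the libraries of a group came from separate mice, and p values measure the spread between these libraries.

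CD300 molecules are surface receptors with a single immunoglobulin domain that bind lipids, many of them exposed on dying cells. Cd300a and Cd300lf carry inhibitory motifs (ITIM) in their tails, which recruit phosphatases such as Ptpn6 (SHP-1). Cd300lb and Cd300e have short tails and couple to Tyrobp, and Cd300ld couples to the Fc receptor gamma chain Fcer1g. The TREM receptors also couple to Tyrobp, whose ITAM motif recruits the kinase Syk. Trem1 amplifies inflammatory responses of phagocytes, Trem2 binds lipids and lipoproteins and serves phagocytosis and lipid handling in macrophages and microglia, and Trem3 is a receptor of mouse myeloid cells whose human counterpart is a pseudogene.

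Total expected counts per library lay between 24664724 and 34837847. A chi-square statistic of the counts per degree of freedom was between 2.33 and 4.50 for pairs of libraries within a group, except that WTL + JSH23 replicate 3 stood at 8.18 and 9.11 from the other libraries of its group. Leaving it out changed no call on a CD300 or TREM gene or Tyrobp, and values without it are given where they differed most. Itgax (CD11c), a dendritic cell marker for which the cells were selected, had between 578 and 673 CPM. Cd209a, which is also used as a dendritic cell marker, had at most 0.181 CPM. Of 6 dendritic cell markers tested, 5 were higher and 0 lower with LPS in both settings (edgeR adjusted p under 0.05). Without JSH-23 these rises ran from 1.08-fold for Ccr7 to 2.03-fold for Zbtb46. JSH-23 under LPS raised 1 and lowered 4, and JSH-23 at rest raised 2 and lowered 2. Over all genes tested, LPS raised 31.0% and lowered 34.7% without JSH-23, and raised 27.4% and lowered 27.1% with it. JSH-23 raised 24.5% and lowered 24.2% under LPS, and raised 18.8% and lowered 22.1% at rest. LPS acted on the cells with and without JSH-23. Il6, Il12b, Tnf, Cxcl1 and Nfkbia together had between 523 and 526 CPM in WT and between 8092 and 8802 CPM in WTL. They had between 537 and 629 CPM in WT + JSH23 and between 5554 and 6248 CPM in WTL + JSH23. Their rises with LPS, without and with JSH-23, were 61.1-fold and 26.3-fold for Il6 and 23.7-fold and 6.29-fold for Il12b. They were 18.7-fold and 39.5-fold for Tnf, 127-fold and 62.4-fold for Cxcl1, and 4.44-fold and 4.08-fold for Nfkbia. CPM denotes a count relative to the TMM-scaled library size, on a scale common to all libraries. The summed level of 10 macrophage markers was between 2839 and 3063 CPM in the libraries without JSH-23 and between 1929 and 2034 CPM in those with it. Single macrophage markers also moved with LPS, 3 higher and 5 lower of 10 in both settings, among them Cx3cr1 (4.77-fold lower without JSH-23), Csf1r (1.69-fold lower) and Marco (1.97-fold higher), and their part in the LPS differences of the receptors was not tested. Neutrophil markers summed to between 190 and 277 CPM, the highest being Mmp8 with between 141 and 233 CPM. S100a8 had between 11.5 and 18.0 CPM, S100a9 between 13.2 and 21.5 CPM and Ngp between 10.9 and 15.7 CPM. Ly6g, Elane, Retnlg and Cxcr2 had at most 0.345 CPM. Fewer cells of a type and less RNA per cell cannot be told apart in bulk samples.

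The CD300 and TREM genes examined lie in 2 clusters. The CD300 cluster (chromosome 11, 114890041 to 115133992 in mm10) spans 244 kb and holds 11 genes, 10 of them on the minus strand with Cd300a as the exception. The TREM cluster (chromosome 17, 48232768 to 48367176) spans 134 kb and holds 6 genes, all on the plus strand. Tyrobp lies apart on chromosome 7 (30413760 to 30417585, plus strand). Promoter windows of 250 bases before to 50 after the start site were taken from RefSeq (GRCm38.p6) for 7 of the 9 genes. Of these 7, the windows of the 4 genes with the largest log2 difference between WTL and WT are printed, to show which motifs stand near the start of the genes that moved together or apart, with capitals marking matches on either strand to PU.1 (GAGGAA), AP-1 (TGANTCA), NF-κB (GGGANTTTC), ISRE (GAAANNGAA) and C/EBP (TTGCNNAA).
Cd300lb, chr11:114934322-114934621, minus strand: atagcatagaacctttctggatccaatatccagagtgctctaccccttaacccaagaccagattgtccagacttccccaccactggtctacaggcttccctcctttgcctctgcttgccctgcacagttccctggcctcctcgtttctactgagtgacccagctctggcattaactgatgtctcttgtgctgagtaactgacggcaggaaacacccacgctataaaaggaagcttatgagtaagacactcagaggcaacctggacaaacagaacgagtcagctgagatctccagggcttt
Cd300a, chr11:114889791-114890090, plus strand: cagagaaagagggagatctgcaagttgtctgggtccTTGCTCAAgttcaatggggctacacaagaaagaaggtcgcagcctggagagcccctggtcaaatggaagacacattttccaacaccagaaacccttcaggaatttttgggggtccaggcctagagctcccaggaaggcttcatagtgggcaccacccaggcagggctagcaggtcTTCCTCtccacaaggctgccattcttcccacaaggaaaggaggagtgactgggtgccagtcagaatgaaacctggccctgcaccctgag
Cd300lf, chr11:115133943-115134242, minus strand: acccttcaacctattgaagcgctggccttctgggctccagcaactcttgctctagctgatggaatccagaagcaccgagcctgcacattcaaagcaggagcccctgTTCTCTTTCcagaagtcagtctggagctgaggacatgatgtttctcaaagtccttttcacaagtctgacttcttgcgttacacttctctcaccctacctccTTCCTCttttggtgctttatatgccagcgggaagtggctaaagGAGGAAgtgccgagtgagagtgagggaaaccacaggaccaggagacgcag
Trem1, chr17:48232489-48232788, plus strand: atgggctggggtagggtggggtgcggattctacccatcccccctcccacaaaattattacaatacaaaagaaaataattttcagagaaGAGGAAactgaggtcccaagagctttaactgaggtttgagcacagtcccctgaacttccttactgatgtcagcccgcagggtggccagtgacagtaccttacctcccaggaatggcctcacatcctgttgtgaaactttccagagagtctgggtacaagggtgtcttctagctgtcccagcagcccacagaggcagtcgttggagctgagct
The PU.1 letters, those of a factor of the myeloid lineage, were found in the windows of 5 of 7 genes, namely Cd300a, Cd300ld, Cd300lf, Trem1 and Trem2, and in 28.3% of 32851 promoters. These matches began at -39 in Cd300a, -43 and 1 in Cd300lf, -40 in Trem2, -143 in Cd300ld and -162 in Trem1, counted from the start site. How often such positions occur over all promoters was not counted. The NF-κB letters were in no window of the 7 genes and in 1.11% of all promoters. The windows of Cd300lb and Cd300e held none of the 5 motifs. The C/EBP letters were in 2 of 7 windows (Cd300a and Trem2, 10.8% of all promoters), the AP-1 letters in that of Trem2 (7.81%), and the ISRE letters in that of Cd300lf (8.56%). A match of letters is a description and not a binding site.

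In WT cells, the order of the transcripts per length and library (TPM as deposited, mean ± SD, n = 3) was led by Tyrobp at 705 ± 2.45 TPM. Trem2 followed at 96.1 ± 0.314 TPM, Cd300lb at 41.3 ± 2.26 TPM and Cd300lf at 21.5 ± 1.50 TPM. Cd300ld had 10.9 ± 0.689 TPM, Cd300a 8.53 ± 0.397 TPM, Trem1 2.16 ± 0.229 TPM, Trem3 1.41 ± 0.315 TPM and Cd300e 0.0733 ± 0.0451 TPM. No neighbours in that order overlapped between libraries. In WTL cells the order changed: Trem1 took rank 3 behind Tyrobp and Trem2 with 25.5 ± 1.44 TPM, while Cd300lb stood at rank 8 of 9 with 0.80 ± 0.265 TPM, above Cd300e alone. Trem3 at 4.55 ± 0.974 TPM and Cd300ld at 3.78 ± 0.484 TPM were neighbours whose libraries overlapped in WTL. In WT + JSH23 cells Cd300a stood at 16.4 ± 0.211 TPM, above Cd300ld at 11.0 ± 0.631 TPM, and Trem1 and Trem3 overlapped at 1.35 ± 0.0252 and 1.22 ± 0.168 TPM. In WTL + JSH23 cells Trem1 was again at rank 3 with 9.53 ± 0.625 TPM, and Cd300lf, Cd300a and Cd300ld overlapped with their neighbours between 5.08 and 7.52 TPM. Cd300e was at the foot of the order in every group.

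Cd300lb, the activating receptor that signals through Tyrobp, was high in the cells without LPS and low in those with it. It had 61.2, 67.7 and 58.9 CPM in the WT libraries and 1.08, 1.60 and 1.98 CPM in the WTL libraries. In WT + JSH23 it had 89.2, 90.4 and 83.7 CPM, and in WTL + JSH23 it had 5.95, 5.45 and 5.53 CPM. The libraries of no 2 groups overlapped. The lowest library still held 28 counts. A processed pseudogene on the opposite strand, Gm11699, overlaps Cd300lb and had at most 10 counts per library, with 0 in WTL. WTL was 40.7-fold below WT (log2 difference -5.35, SE 0.10), a value given without a test. On log2(TPM + 1), which shrinks folds of low genes, the difference was -4.56. With JSH-23, LPS lowered Cd300lb 15.5-fold (log2 fold change -3.95 ± 0.08 SE, edgeR adjusted p = 7.92e-20). WTL + JSH23 stood 3.68-fold above WTL (log2 difference 1.88, and 1.19 on log2(TPM + 1)) and WT + JSH23 1.40-fold above WT, both described without a test because these comparisons contain libraries that the choice of Cd300lb rests on.

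Cd300a, an inhibitory receptor with ITIM motifs, moved with both treatments. Its levels were 20.2, 22.4 and 19.9 CPM in WT and 4.38, 4.23 and 5.16 CPM in WTL. They were 42.2, 42.6 and 43.7 CPM in WT + JSH23 and 14.2, 14.6 and 15.0 CPM in WTL + JSH23. Each group lay apart from the others, and the WTL + JSH23 libraries were below those of WT. The log2 difference between WTL and WT was -2.20 (SE 0.08, no test). With JSH-23, LPS lowered Cd300a 2.94-fold (log2 fold change -1.55 ± 0.06, edgeR adjusted p = 4.5e-15). JSH-23 raised it 2.05-fold at rest (1.03 ± 0.06 on the log2 scale, edgeR adjusted p = 3.09e-12) and 3.20-fold under LPS (1.68 ± 0.09, edgeR adjusted p = 7.0e-13). Reads of Cd300a were shared with other genes in part, since its expected count was fractional in 7 of 12 libraries.

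Cd300lf, the other ITIM-bearing receptor, was lower with LPS by about the same amount in both settings. It had 23.2, 25.8 and 25.7 CPM in WT, 8.10, 8.57 and 9.35 CPM in WTL, 24.8, 29.5 and 25.3 CPM in WT + JSH23, and 9.57, 10.7 and 6.91 CPM in WTL + JSH23. Libraries with and without LPS did not overlap, whereas libraries with and without JSH-23 did. The log2 difference was -1.53 (SE 0.10, no test) between WTL and WT and -1.54 ± 0.10 between WTL + JSH23 and WT + JSH23 (edgeR adjusted p = 3.52e-11). For JSH-23 the log2 fold changes were 0.09 ± 0.09 at rest (edgeR adjusted p = 0.451) and 0.07 ± 0.12 under LPS (edgeR adjusted p = 0.647). Without WTL + JSH23 replicate 3, which had the lowest level of Cd300lf of all, the value under LPS was 0.23 (edgeR adjusted p = 0.0827). Cd300lf overlaps Rab37 on the opposite strand, which had between 0 and 10 counts per library. The expected count of Cd300lf was fractional in 4 of 12 libraries.

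Cd300ld, which couples to the Fc receptor gamma chain, had 14.9, 17.1 and 16.3 CPM in WT and 7.40, 6.17 and 7.60 CPM in WTL. It had 15.4, 16.9 and 16.7 CPM in WT + JSH23 and 8.86, 9.99 and 7.22 CPM in WTL + JSH23. Libraries with LPS were below those without it in both settings. The log2 difference between WTL and WT was -1.20 (SE 0.10, no test), and with JSH-23 LPS lowered Cd300ld 1.87-fold (log2 fold change -0.90 ± 0.10, edgeR adjusted p = 7.28e-08). JSH-23 under LPS gave a log2 fold change of 0.32 ± 0.11 (edgeR adjusted p = 0.0234) although the libraries overlapped, and that call was lost without WTL replicate 5 (edgeR adjusted p = 0.157), WTL + JSH23 replicate 1 (0.0597) or WTL + JSH23 replicate 2 (0.153). At rest the change with JSH-23 was 0.02 ± 0.09 (edgeR adjusted p = 0.879). The expected count of Cd300ld was fractional in 4 of 12 libraries. Cd300e, the remaining receptor of this family, had at most 0.30 CPM in any library, and no difference could be seen at that depth.

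**Figure D1:**
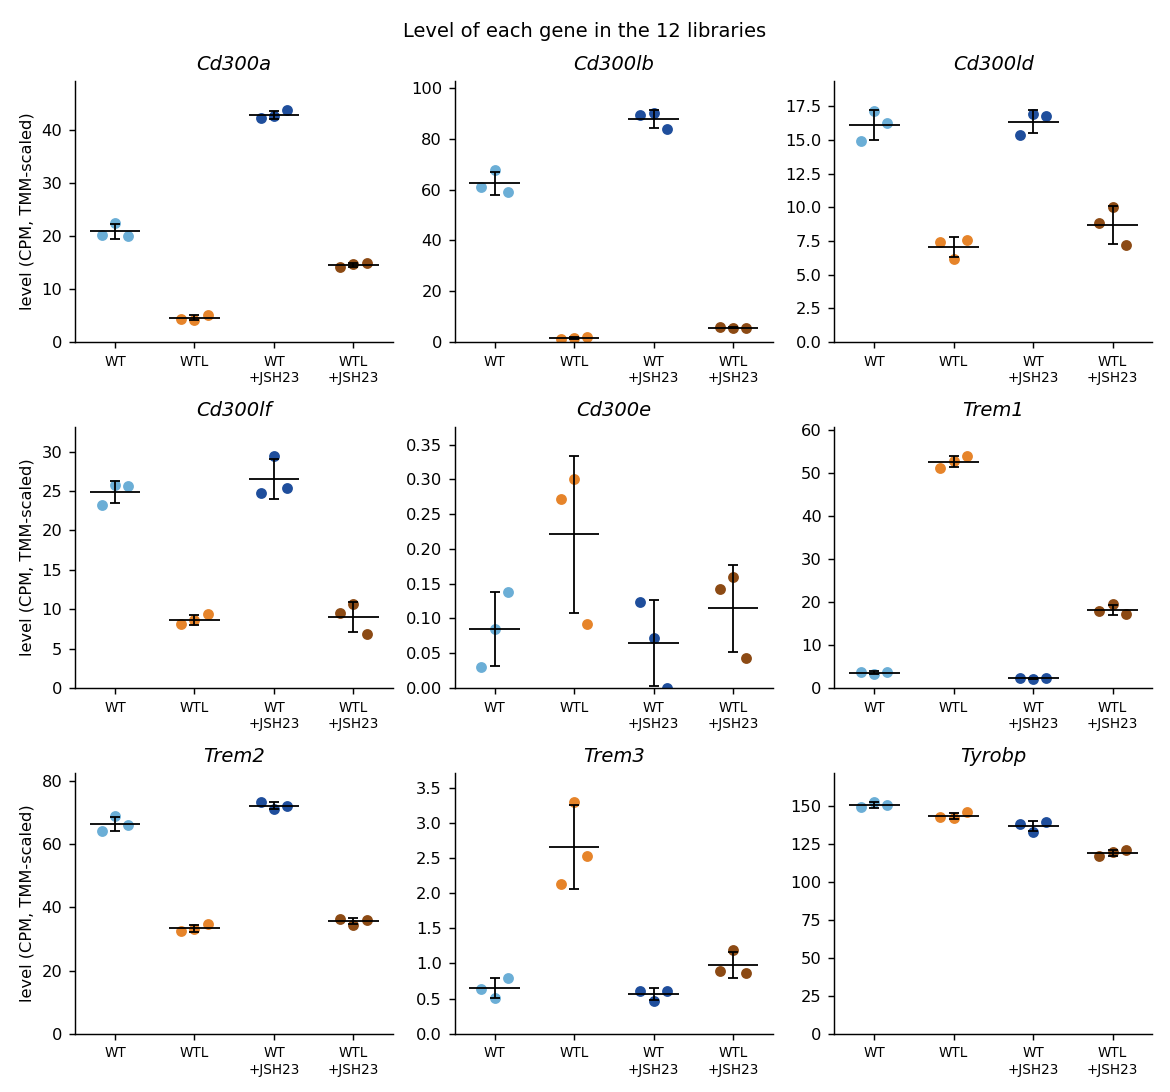
Level (CPM, TMM-scaled library size, linear axis from 0) of the 9 genes in each of the 12 libraries, as points, with the group mean and SD (n = 3) as lines. Cd300lb, Cd300a, Cd300ld, Cd300lf and Trem2 lie lower in the groups with LPS, Trem1 and Trem3 lie higher, and Tyrobp stays between 117 and 153 CPM.

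Trem1, the amplifier of inflammatory responses, went the opposite way from Trem2 and the CD300 genes. It had 3.79, 3.19 and 3.73 CPM in WT and 51.1, 52.8 and 53.8 CPM in WTL. It had 2.30, 2.13 and 2.28 CPM in WT + JSH23 and 17.9, 19.5 and 17.1 CPM in WTL + JSH23. The libraries of no 2 groups overlapped, and those with JSH-23 were below their counterparts without it. WTL was 14.8-fold above WT (log2 difference 3.88, SE 0.07, no test, and 3.07 on log2(TPM + 1)). With JSH-23, LPS raised Trem1 8.08-fold (log2 fold change 3.01 ± 0.09, edgeR adjusted p = 4.62e-17). JSH-23 lowered Trem1 2.89-fold under LPS (-1.53 ± 0.06 on the log2 scale, edgeR adjusted p = 8.5e-15) and 1.58-fold at rest (-0.66 ± 0.12, edgeR adjusted p = 7.79e-05). A processed pseudogene on the opposite strand within Trem1, AC241601.2, had at most 38 counts and was also higher with LPS, and reads of the strands cannot be told apart as the strand setting of the counting is not given in the sources used here.

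Trem3, the neighbour of Trem1, was a low gene with between 13 and 99 counts per library. Its levels were 0.64, 0.51 and 0.79 CPM in WT, 2.13, 3.30 and 2.53 CPM in WTL, 0.61, 0.47 and 0.61 CPM in WT + JSH23, and 0.89, 1.19 and 0.86 CPM in WTL + JSH23. Libraries with LPS lay above those without it in both settings, and only the resting groups overlapped with each other. The log2 difference between WTL and WT was 2.05 (SE 0.24, no test), and 1.19 on log2(TPM + 1). With JSH-23 the log2 fold change for LPS was 0.78 ± 0.28 (edgeR adjusted p = 0.0248), a call lost without WT + JSH23 replicate 2 (edgeR adjusted p = 0.0855), without WTL + JSH23 replicate 2 (0.118) and with limma on log2(TPM + 1) (0.0563). JSH-23 lowered Trem3 2.72-fold under LPS (-1.44 ± 0.23 on the log2 scale, edgeR adjusted p = 2.37e-05), and at rest the change was -0.18 ± 0.29 (edgeR adjusted p = 0.681).

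Trem2, the receptor for lipids and lipoproteins, had 64.3, 68.9 and 66.1 CPM in WT and 32.4, 33.1 and 34.7 CPM in WTL. It had 73.5, 71.1 and 72.1 CPM in WT + JSH23 and 36.3, 34.6 and 36.0 CPM in WTL + JSH23. The groups with and without LPS lay far apart, and WTL and WTL + JSH23 overlapped. The log2 difference was -0.99 (SE 0.05, no test) between WTL and WT and -1.02 ± 0.05 with JSH-23 (edgeR adjusted p = 3.95e-14), at the border of the 2-fold threshold on either side of it. JSH-23 under LPS gave 0.09 ± 0.05 (edgeR adjusted p = 0.116). At rest it gave 0.12 ± 0.04 (edgeR adjusted p = 0.0259), which was lost without WT replicate 4 (edgeR adjusted p = 0.129), WT replicate 6 (0.0719), WT + JSH23 replicate 1 (0.0902) or WT + JSH23 replicate 3 (0.0557).

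Tyrobp, the adaptor of Cd300lb, Cd300e and the TREM receptors, moved little beside its receptors. It had 149, 153 and 151 CPM in WT and 143, 142 and 146 CPM in WTL. It had 138, 133 and 139 CPM in WT + JSH23 and 117, 120 and 121 CPM in WTL + JSH23. The groups lay in this order with no overlap in any of the 4 comparisons. The log2 difference between WTL and WT was -0.07 (SE 0.04, no test). LPS with JSH-23 lowered Tyrobp 1.15-fold (log2 fold change -0.20 ± 0.04, edgeR adjusted p = 8.97e-05). JSH-23 lowered it 1.20-fold under LPS (-0.27 ± 0.04, edgeR adjusted p = 2.65e-06) and 1.10-fold at rest (-0.14 ± 0.04, edgeR adjusted p = 0.00269). These small differences depended in size on the scaling. The median log2(TPM + 1) difference of all genes was -0.26 between WTL and WT and -0.16 with JSH-23, against -0.05 and -0.02 for log2 fold changes with TMM scaling. On that TPM scale the value for Tyrobp between WTL and WT was -0.43.

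Comparing WTL with WT, 2 of the 8 genes with enough reads were more than 2-fold higher (Trem1 and Trem3) and 4 were more than 2-fold lower (Cd300a, Cd300lb, Cd300ld and Cd300lf), and the groups did not overlap for any of the 8. Over all genes tested, 7.36% were higher and 9.09% lower at an adjusted p of 0.05 with a change over 2-fold, and for 69.9% the groups did not overlap. The genes were chosen on this comparison, so nothing is read from those counts. LPS with JSH-23 shares no library with it. Its p values still do not stand apart from the choice, as the genes were picked with earlier results of these data known. In LPS with JSH-23, 8 of 8 genes passed an adjusted p of 0.05 in edgeR, 2 higher (Trem1 and Trem3) and 6 lower, against 27.4% higher and 27.1% lower of all genes tested. With a change over 2-fold, 5 of the 8 were called: Trem1 was higher (5.85% of all genes), and Cd300a, Cd300lb, Cd300lf and Trem2 were lower (4.49% of all genes). The median log2 fold change of all genes tested was -0.02. Without WTL + JSH23 replicate 2, Trem2 was just under 2-fold and Cd300ld over it (-1.01), so that Cd300ld took the place of Trem2 among the 5. On log2(TPM + 1) with limma 4 genes were over 2-fold.

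With JSH-23 under LPS, 5 of the 7 genes tested passed an adjusted p of 0.05, Cd300a and Cd300ld higher (24.5% of all genes) and Trem1, Trem3 and Tyrobp lower (24.2%). Of these, 3 changed more than 2-fold, Cd300a being higher (3.75% of all genes) and Trem1 and Trem3 lower (3.25%). With JSH-23 at rest, 4 of 7 passed, Cd300a and Trem2 higher (18.8% of all genes) and Trem1 and Tyrobp lower (22.1%). Cd300a alone was over 2-fold higher (2.43% of all genes), and none of the 7 was over 2-fold lower (2.94%). With JSH-23 under LPS, the 3 genes over 2-fold each lay closer to WT than WTL did: Cd300a had 14.6 CPM against 4.59 in WTL and 20.9 in WT, Trem1 18.2 CPM against 52.6 and 3.57, and Trem3 0.981 CPM against 2.65 and 0.649. The resting cells with JSH-23 had 42.8 CPM of Cd300a, 2.24 CPM of Trem1 and 0.566 CPM of Trem3. Measured from those cells, LPS still lowered Cd300a and raised Trem1 and Trem3. Cd300lb, described without a test, had 5.65 CPM in WTL + JSH23 against 1.55 in WTL, 62.6 in WT and 87.8 in WT + JSH23. JSH-23 under LPS shares the WTL libraries, and JSH-23 at rest the WT libraries, with the comparison that the genes were chosen on. The p values of both therefore do not stand apart from the choice. Genes chosen on the difference between WTL and WT may lie closer to WT in another group through that choice, so this nearness is given as a description. Macrophage markers moved with JSH-23 as well: 8 of 10 were lower and none was higher at rest, and 7 were lower and 2 higher under LPS (edgeR adjusted p under 0.05), and their part in the changes of the CD300 and TREM genes was not tested.

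**Figure D2:**
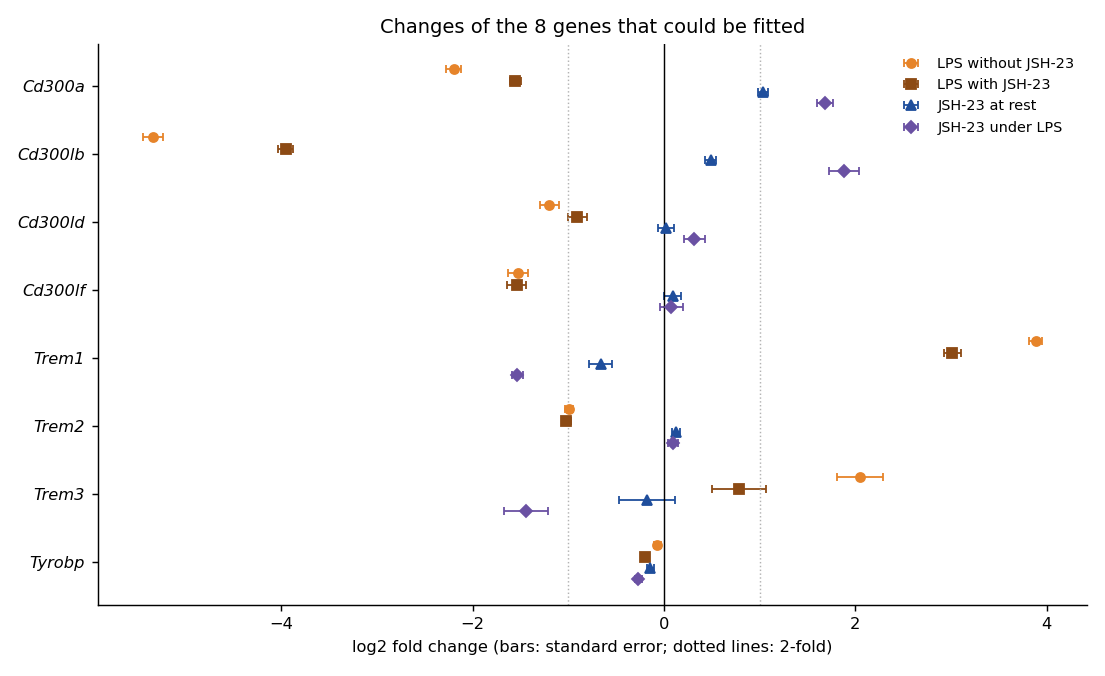
Log2 fold change (points) with its standard error (bars) of the 8 genes that had enough reads, for LPS without and with JSH-23 and for JSH-23 at rest and under LPS, with dotted lines at 2-fold. LPS values run from -5.35 for Cd300lb to 3.88 for Trem1, and Cd300a and Trem1 are shifted in opposite directions by JSH-23.

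The LPS change with JSH-23 minus that without it was described for the chosen genes with no test. On the log2 scale it was 1.39 (SE 0.17) for Cd300lb (0.74 on log2(TPM + 1)), 0.65 (SE 0.10) for Cd300a and 0.30 (SE 0.14) for Cd300ld, so that the LPS change of these genes was smaller in size with JSH-23. It was -0.87 (SE 0.13) for Trem1 and -1.26 (SE 0.38) for Trem3, which also had the smaller LPS change with JSH-23. For Cd300lf and Trem2 it was -0.01 (SE 0.15) and -0.03 (SE 0.06), and for Tyrobp -0.13 (SE 0.05). Over all genes tested, 18.0% passed an adjusted p of 0.05 for this difference.

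The make-up of the receptor transcripts was set out as the share of each gene in the summed TPM of the 8 receptors, without Tyrobp (mean ± SD, n = 3). The sum was 182 ± 3.73 TPM in WT, 93.7 ± 5.88 TPM in WTL, 213 ± 3.77 TPM in WT + JSH23 and 89.6 ± 2.38 TPM in WTL + JSH23. Of these 8, Trem2 held the largest share in each group, with 52.8% ± 1.19 in WT, 54.3% ± 0.594 in WTL, 48.4% ± 1.39 in WT + JSH23 and 63.7% ± 2.18 in WTL + JSH23. Other receptors of the clusters, such as Cd300c2, Treml2 and Treml4, were left out, so sum and shares depend on the list. Cd300c2 had 90.0, 43.8, 102 and 59.9 TPM in WT, WTL, WT + JSH23 and WTL + JSH23. Trem2 had 96.1, 50.9, 103 and 57.0 TPM in the same order. Cd300lb held 22.7% ± 0.819 in WT and 0.845% ± 0.233 in WTL. Trem1 held 1.19% ± 0.148 in WT and 27.2% ± 0.222 in WTL. With JSH-23, the share of Cd300lb went from 26.6% ± 1.31 to 3.43% ± 0.106 and that of Trem1 from 0.635% ± 0.000597 to 10.6% ± 0.518. Tyrobp exceeded the sum of these 8 receptors in every group, with 524 ± 17.5 TPM in WTL, 632 ± 6.45 TPM in WT + JSH23 and 474 ± 3.75 TPM in WTL + JSH23.

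**Figure D3:**
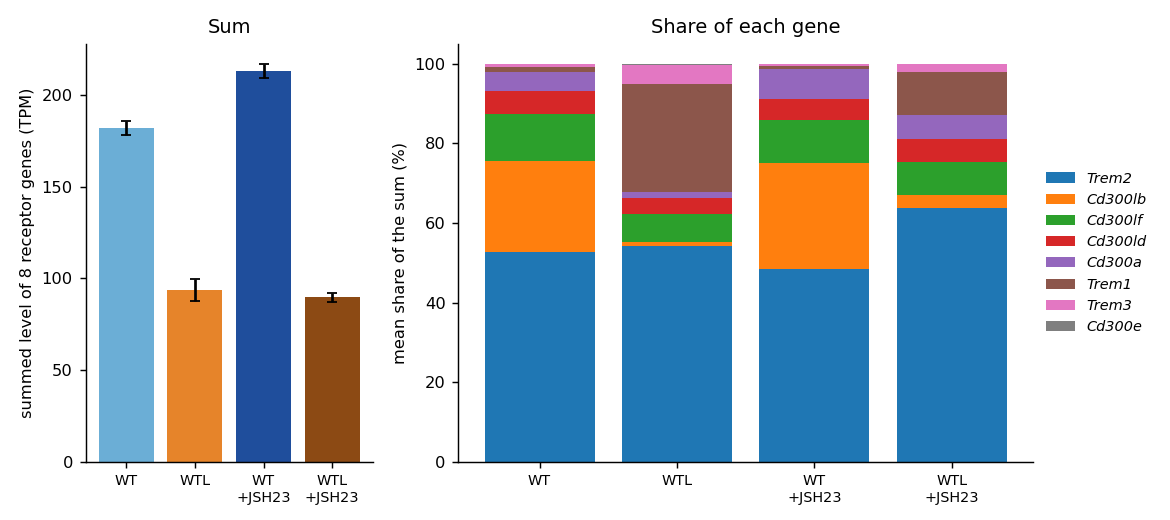
Summed level (TPM, mean with SD, n = 3, axis from 0) of the 8 receptor genes in each group, and the mean share of each gene in that sum (%). Trem2 holds between 48.4% and 63.7% in every group, while Cd300lb gives way to Trem1 in the groups with LPS.

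The mean transcript length that RSEM gave for a gene, which weights its annotated transcripts by their estimated use, differed with LPS for Trem2. It was 1368 ± 32.4 bases in WT and 1089 ± 3.70 bases in WTL, and 1378 ± 22.7 bases in WT + JSH23 and 1119 ± 8.13 bases in WTL + JSH23 (SD, n = 3), with no overlap between libraries with and without LPS. A shorter mean length raises the TPM for a given count, and TPM and CPM of Trem2 therefore differ in their ratio between groups. For Cd300lf the mean length was 2126 ± 85.2 bases in WT and 1915 ± 37.8 bases in WTL, and 2089 ± 71.0 bases in WT + JSH23 and 1924 ± 83.5 bases in WTL + JSH23. For Cd300a it was 4201 ± 136 bases in WT and 4643 ± 1.71 bases in WTL, without overlap, and in the other direction 4460 ± 120 bases in WT + JSH23 and 4007 ± 395 bases in WTL + JSH23, with overlap. Cd300ld, Cd300e and Trem3 have 1 annotated transcript each and kept their length. These lengths rest on the estimated division of reads between transcripts, and no test was made of them.

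Among the other genes of the clusters, Cd300c2, an activating CD300 receptor next to Cd300ld, was lower with LPS. It had 53.7 ± 2.22 CPM in WT, 32.4 ± 2.85 CPM in WTL, 61.0 ± 3.18 CPM in WT + JSH23 and 41.0 ± 1.60 CPM in WTL + JSH23, and fell with LPS both without JSH-23 (log2 fold change -0.73 ± 0.06, edgeR adjusted p = 6.85e-10) and with it (-0.57 ± 0.06, edgeR adjusted p = 3.2e-08). Cd300ld3, and Cd300lg, which lies outside the cluster on chromosome 11, had group means of at most 1.95 CPM and passed in no comparison, Cd300c had at most 5 counts, and Cd300ld2, Cd300ld4 and Cd300ld5 were listed at 0 in all 12 libraries. In the TREM cluster Treml4, between Trem3 and Treml2, rose with LPS by 0.95 ± 0.07 without JSH-23 and by 0.43 ± 0.06 with it on the log2 scale (edgeR adjusted p = 1.49e-10 and 6.62e-06). Treml4 also rose with JSH-23 at rest, from 10.8 ± 0.334 to 22.0 ± 1.08 CPM (1.03 ± 0.07, edgeR adjusted p = 8.21e-11), where Trem1 fell. Treml2 fell in all 4 comparisons, by between 0.65 and 0.80 on the log2 scale. Treml1, with a group mean under 1 CPM, fell with LPS with log2 fold changes of -2.52 ± 0.60 and -2.37 ± 0.57 without and with JSH-23 (edgeR adjusted p = 0.000998 and 0.0014). Along the TREM cluster the 3 genes at the Trem1 end were higher with LPS and the 3 at the Trem2 end lower, in both settings. This is a description, as Trem1, Trem3 and Trem2 are among the chosen genes. Treml1 had between 1 and 6 counts in the WTL libraries, and the Trem3 call with JSH-23 was lost when certain single libraries were left out.

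**Figure D4:**
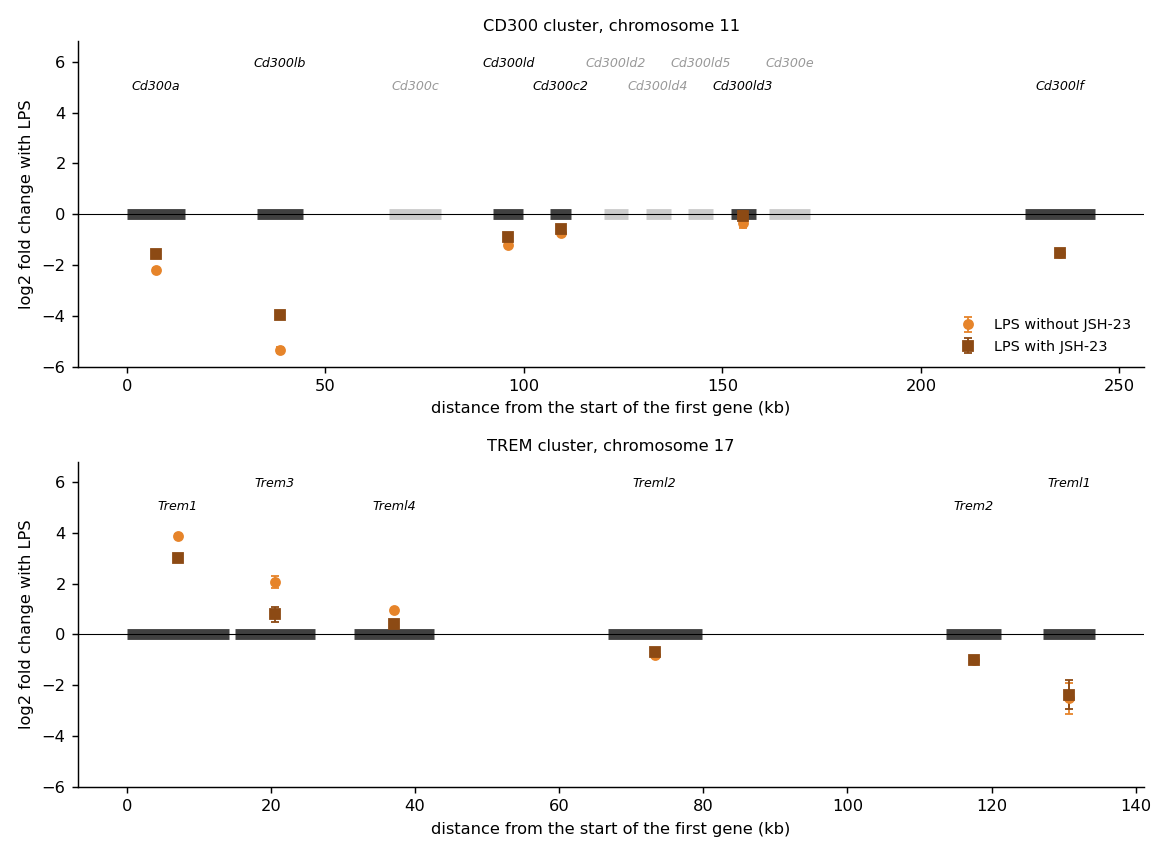
Log2 fold change with LPS (points, bars for the standard error) without and with JSH-23 along the CD300 cluster and the TREM cluster, against the distance in kb from the start of the first gene. Dark blocks are genes with enough reads and light blocks the others, and the sign of the change divides the TREM cluster between Treml4 and Treml2.

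Genes of the pathway around these receptors were counted from lists of general knowledge. In WTL against WT, 31.0% of all genes tested were higher and 34.7% lower at an adjusted p under 0.05 in edgeR. There 5 ITAM adaptors and coupled receptors were higher and 6 lower of 12, 11 members of the kinase cascade were higher and 10 lower of 22, 8 ITIM receptors and phosphatases were higher and 3 lower of 14, and 5 genes of ligands and shedding were higher and 2 lower of 9. Among 12 tested adaptors with an ITAM and receptors coupled to them, LPS with JSH-23 raised 3 and lowered 6 (median log2 fold change -0.17), JSH-23 under LPS raised 1 and lowered 10 (median -0.73), and JSH-23 at rest raised 1 and lowered 10 (median -0.71), by edgeR at an adjusted p under 0.05. The shares over all genes tested, for this and the following lists, were 27.4% higher and 27.1% lower in LPS with JSH-23, 24.5% and 24.2% in JSH-23 under LPS, and 18.8% and 22.1% in JSH-23 at rest. Fcer1g, the partner of Cd300ld, had 228, 289, 189 and 203 CPM on average in WT, WTL, WT + JSH23 and WTL + JSH23. Hcst (DAP10), another adaptor of such receptors, had group means between 1.64 and 1.94 CPM and passed in no comparison. Clec4e (Mincle) rose from 1097 to 4152 CPM with LPS in the presence of JSH-23 (log2 fold change 1.92 ± 0.05, edgeR adjusted p = 2.04e-18). The Fc receptor Fcgr1 fell with JSH-23 under LPS from 110 to 41.5 CPM (-1.40 ± 0.07, edgeR adjusted p = 3.58e-13), and with JSH-23 at rest it fell by 1.31 and Fcgr4 by 1.12 on the log2 scale (edgeR adjusted p = 3.69e-13 and 1.27e-07). Fcgr3, another Fc receptor, fell with LPS with JSH-23 (-0.66 ± 0.05, edgeR adjusted p = 2e-10).

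Of 22 kinases and signalling proteins downstream of the ITAM, LPS with JSH-23 raised 12 and lowered 7 (median log2 fold change 0.14), and JSH-23 lowered 16 and raised 2 under LPS (median -0.36) and lowered 16 and raised 0 at rest (median -0.35). Syk, the kinase recruited by Tyrobp, rose with LPS with JSH-23 from 538 to 786 CPM (log2 fold change 0.55 ± 0.03, edgeR adjusted p = 6.31e-12) and fell with JSH-23 under LPS (-0.45 ± 0.03, edgeR adjusted p = 1.91e-10). Malt1 and Lcp2, an effector and an adaptor of the cascade, rose with LPS with JSH-23 by 2.34 ± 0.05 and 1.62 ± 0.05 on the log2 scale (edgeR adjusted p = 8.54e-20 and 3.53e-16), and the adaptor Lat2 fell by 1.26 (edgeR adjusted p = 3.04e-13). The Src family kinase Fgr fell with JSH-23 by 1.38 at rest and 1.34 under LPS on the log2 scale (edgeR adjusted p = 2.3e-12 and 4.8e-12). Lyn, of the same family, had 209 CPM in WTL and 91.0 CPM in WTL + JSH23 (-1.20 ± 0.05, edgeR adjusted p = 1.44e-14). Pik3cd fell with JSH-23 at rest from 207 to 79.8 CPM (-1.38 ± 0.05, edgeR adjusted p = 2.64e-15).

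Of 14 ITIM receptors and phosphatases, the partners of Cd300a and Cd300lf among them, LPS with JSH-23 raised 9 and lowered 3 (median log2 fold change 0.18), while JSH-23 raised 1 and lowered 12 under LPS (median -0.52) and raised 2 and lowered 11 at rest (median -0.48). Ptpn6 (SHP-1) fell with JSH-23 from 294 to 159 CPM at rest and from 299 to 170 CPM under LPS (-0.88 ± 0.04 and -0.81 ± 0.04 on the log2 scale, edgeR adjusted p = 1.16e-13 and 3.35e-13), the opposite direction to Cd300a. The lipid phosphatase Inpp5d (SHIP1) fell with LPS with JSH-23 from 96.1 to 36.1 CPM (-1.41 ± 0.06, edgeR adjusted p = 3.7e-14), and Siglecg rose (1.40 ± 0.07, edgeR adjusted p = 1.08e-13). Clec12a and Siglece fell with JSH-23 under LPS by 1.52 and 1.41 on the log2 scale (edgeR adjusted p = 5.78e-13 and 9.4e-07). Clec4a2 fell with LPS with JSH-23 by 0.74 (edgeR adjusted p = 1.83e-07). Of 9 genes for TREM ligands and the shedding of receptors, 2 rose and 2 fell in LPS with JSH-23 (median 0.06). The sheddase Adam10 fell there by 0.36 (edgeR adjusted p = 2.15e-06) and Hmgb1, a ligand of Trem1, by 0.40 (edgeR adjusted p = 2.99e-06). Ms4a6d rose by 0.19 (edgeR adjusted p = 0.00111), whereas Adam17, another sheddase, gave 0.09 ± 0.04 (edgeR adjusted p = 0.0983). Of these 9 genes 3 fell and 0 rose with JSH-23 both under LPS and at rest, Ms4a4a by 0.64 and 0.48 (edgeR adjusted p = 6.92e-06 and 0.000203) and Adam17 by 0.35 and 0.28 (edgeR adjusted p = 8.39e-07 and 1.91e-05).

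Genes whose pattern over the 12 libraries was most like that of a receptor were named by Pearson's r of log2 CPM over 12298 protein-coding genes, as a description, since the libraries share 4 groups and their treatments. For Cd300lb these were Nceh1 (r = 0.997), Rab7b, Arl11, Galc and Cytip, of which Rab7b had 84.2 ± 4.85, 7.73 ± 1.01, 106 ± 1.47 and 20.7 ± 1.35 CPM in WT, WTL, WT + JSH23 and WTL + JSH23. For Trem1 they were Marcksl1 (r = 0.999), Cdkn1a, Fam107b, Gpd2 and Baz1a, and Cdkn1a had 560 ± 6.37, 2129 ± 40.3, 418 ± 6.61 and 1153 ± 29.6 CPM in the same order. For Trem2 they were Cdc25b (r = 0.995), Cd200r1, Arhgap27 and Dtd2, and Cd200r1 had 65.3 ± 7.01, 18.0 ± 1.39, 70.9 ± 0.885 and 23.1 ± 2.00 CPM.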

How the data were processed

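The authors trimmed paired-end reads with Trim Galore, aligned them to mm10 with STAR 2.6.0c per the labels, and ran RSEM with a GENCODE annotation whose release is not given in the sources used here. Library preparation is described differently in the labels (depletion of ribosomal RNA) and the methods (poly-A selection), and the strand setting of the counting is not given in the sources used here. The authors deposited expected counts, in which RSEM divides ambiguous read pairs between genes, with no scaling between libraries. The deposited TPM values are per transcript length and sum to a common total, so they move when a few abundant genes change. Symbols and positions came from GENCODE M21 (mm10), which matched 55154 of 55335 identifiers without version.

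Expected counts were rounded and filtered with filterByExpr in edgeR 4.0.16 (R 4.3.3), and libraries were scaled by TMM, with factors between 0.859 and 1.12. The edgeR quasi-likelihood F-test was fitted to all 12 libraries with a mean per group (8 residual degrees of freedom), with Benjamini-Hochberg adjustment over 14357 genes. SE is that of the log2 fold change. A call needed an adjusted p under 0.05, with counts also given for changes over 2-fold. The code was tested on simulated data with known changes. Alternatives were DESeq2 (1.42.0 here, while the study used an earlier version), other scalings and filters, and limma 3.58.1 on log2(TPM + 1). Further alternatives were fits on the groups compared alone, a block for the replicate number, and leaving out each library.

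The genes, the lists around them and the tests were chosen with earlier results of these data known. List genes were named by a rule: the 3 with the largest change in LPS with JSH-23 and the 2 largest in each JSH-23 comparison among those that passed with at least 1 CPM, besides Fcer1g, Hcst, Syk, Ptpn6 and Inpp5d in any case. The 5 genes with the most similar pattern were named for Cd300lb, Trem1 and Trem2, except 1 that is not reported here. The protein sequences were not analysed here. Replicate numbers were not used to pair the libraries in the main fit, as no label says what a number marks. WT and WTL share numbers 4 to 6 and the JSH-23 groups 1 to 3. Deviations from the group means of same-numbered libraries correlated at between 0.0142 and 0.0614. Those of differently numbered libraries correlated at between -0.0564 and 0.0355, so a weak pairing is not excluded.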

Additional observations from a re-analysis of the deposited data

Results flagged for a closer look

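Each of the following genes from the lists around the CD300 and TREM receptors had an LPS change that differed with JSH-23 by the interaction term in edgeR. On the log2 scale, the LPS change with JSH-23 minus that without it was -0.72 for Siglecg (edgeR adjusted p = 2.4e-05), -0.52 for Treml4 (edgeR adjusted p = 0.000569), -0.43 for Lcp2 (edgeR adjusted p = 0.000344), -0.41 for Lyn (edgeR adjusted p = 0.000171) and -0.38 for Syk (edgeR adjusted p = 9.04e-06). It was -0.24 for Fcer1g (edgeR adjusted p = 0.0185) and 0.20 for Malt1 (edgeR adjusted p = 0.0379). It was 0.54 for Inpp5d (edgeR adjusted p = 0.000178), 0.57 for Pik3cd (edgeR adjusted p = 7.01e-06) and 0.58 for Lat2 (edgeR adjusted p = 0.000176). Pik3cd, a catalytic subunit of phosphoinositide 3-kinase, was lower with LPS without JSH-23 (207 to 165 CPM) and higher with it (79.8 to 94.2 CPM). Lyn had 160 CPM in WT and 209 CPM in WTL, beside 93.0 CPM in WT + JSH23 and 91.0 CPM in WTL + JSH23. Groups of 3 libraries are too small for a test of single outlying libraries.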

How the results depend on the processing

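The 22 tests on the CD300 and TREM genes and Tyrobp kept their direction and their side of the threshold with DESeq2, with either other scaling, with a mean of at least 1 CPM and with the fits on the groups compared alone. Without the filter 21 of 22 did, Trem2 at rest being the exception (0.12, edgeR adjusted p = 0.0885), and with limma on log2(TPM + 1) 19 did. There Trem3 in LPS with JSH-23 (0.35, limma adjusted p = 0.0563) and Trem2 with JSH-23 at rest (0.10, limma adjusted p = 0.0821) were lost, and Trem2 with JSH-23 under LPS passed (0.16, limma adjusted p = 0.00658). That scale called fewer genes over 2-fold, at 1345 against 2361 for WTL against WT, 613 against 1484 for LPS with JSH-23, 404 against 1005 for JSH-23 under LPS, and 318 against 771 at rest, where 0 of the CD300 and TREM genes were over 2-fold against 1. The pseudocount of 1 shrinks folds of low genes by construction. With a mean of at least 1 CPM, 511 genes were called for JSH-23 at rest. The share of calls that were higher went from 44.7% to 30.0% for WTL against WT on the TPM scale, and from 53.1% to 41.0% with DESeq2 and 79.5% on the TPM scale for the interaction, and the cause was not tested.

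Leaving out each library gave between 2301 and 2449 genes called for WTL against WT, 1451 and 1513 for LPS with JSH-23, 924 and 1075 for JSH-23 under LPS, 703 and 803 at rest with JSH-23, and 1880 and 2838 for the interaction. CD300 and TREM genes called over 2-fold numbered 5, 3 and 1 in LPS with JSH-23, JSH-23 under LPS and JSH-23 at rest, although without WTL + JSH23 replicate 2 Cd300ld took the place of Trem2 among the 5, and those at an adjusted p under 0.05 at 7 to 8, 4 to 5 and 3 to 4. Values that had not passed changed sign when 1 library was left out: Cd300lf under LPS ran from -0.051 (without WTL + JSH23 replicate 2) to 0.23, and Cd300ld at rest from -0.033 (without WT replicate 4, and -0.0048 without WT + JSH23 replicate 2) to 0.070. The replicate block could be fitted to the LPS comparisons alone, as the JSH-23 comparisons share no numbers, and changed none of the 8 calls in LPS with JSH-23, Trem3 in LPS with JSH-23 being nearest to the threshold (0.78, edgeR adjusted p = 0.0381), and the fold for Cd300lb there was -3.96 on the log2 scale. WT + JSH23 replicate 1 correlated more with WTL + JSH23 replicate 2 than with replicate 1 of that group (0.0355 against 0.0142). Of the 5 genes most like each of Cd300lb, Trem1 and Trem2, 1, 2 and 2 were also among the 5 on log2(TPM + 1). Depth limits Cd300e and Trem3, with at most 9 and 99 counts per library.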
